A study of Mus musculus with 6 samples.

Results

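The heat shock genes described here are Hspa1a, Hspa1b, Hspa8, Hsph1, Dnajb1, Hsp90aa1, Hspb1, Hspd1 and Hspe1, with Hsf1, the transcription factor that drives them under stress. They were chosen by gene symbol, and all 10 were found, each as a single row, among the 55487 genes of the count and abundance tables. RNA was sequenced from primitive macrophages, the first macrophages of the embryo and the source of microglia, grown from mouse embryonic stem cells (ESCs). The ESCs came from wild-type mice or from Ts1Cje mice, a Down syndrome model with an extra copy of the distal part of chromosome 16, attached to the end of chromosome 12. Both genotypes went through the same 12 days of culture with M-CSF, IL-3, SCF, VEGF, activin A, BMP-4 and FGF2, after growth in LIF and serum replacement. Each genotype had 3 libraries, numbered as lots. The series describes them as different cells but does not say whether they are separate ESC lines or separate differentiations, so p-values measure only the spread between these libraries. The study asked why Ts1Cje embryos have fewer microglia.

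Heat shock proteins are molecular chaperones: they bind unfolded protein chains, keep them from clumping and help them fold. HSP70 proteins work in cycles of ATP hydrolysis that J-domain partners start and nucleotide exchange factors reset, HSP90 finishes the folding of kinases and receptors, and the HSP60 and HSP10 chaperonin forms a closed chamber inside mitochondria. At rest Hsf1 is held inactive in the cytosol by chaperones. When unfolded protein accumulates it forms trimers, moves to the nucleus and binds heat shock elements, in which the unit GAA alternates with its complement TTC, and the stress-inducible genes Hspa1a, Hspa1b, Hspb1 and Dnajb1 are among its classical targets. Macrophages, which take up and digest cells and particles, are known to rely on HSP70 and HSP90 under inflammatory stress.

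Promoters of 7 of the 10 genes were read from RefSeq (GRCm38.p6). Stretches that match units of the heat shock element are shown, because Hsf1 is known to bind elements built of these units. The 250 bases before each transcript start were searched for pairs of units (GAANNTTC or TTCNNGAA, each the same on both strands) and for runs of 3 units (GAANNTTCNNGAA or its complement TTCNNGAANNTTC), where a run of 3 units also counts as pairs. Capitals mark the matches.
Hspe1, plus strand, chr1:55088053-55088082: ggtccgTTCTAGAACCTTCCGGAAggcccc
Hspd1, minus strand, chr1:55088053-55088082: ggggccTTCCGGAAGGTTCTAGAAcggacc
Hspa1a, minus strand, chr17:34972228-34972285: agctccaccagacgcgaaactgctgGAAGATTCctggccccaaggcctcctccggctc
Hspb1, plus strand, chr5:135887777-135887854: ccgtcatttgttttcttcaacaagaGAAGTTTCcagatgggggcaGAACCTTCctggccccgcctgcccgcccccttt
Hsph1, minus strand, chr5:149636351-149636380: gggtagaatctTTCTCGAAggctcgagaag
Pairs were found in 7 of the 10 windows of these genes, against 12.8% of all 32851 promoter windows of this length; several of the 7 overlap or are near copies (the 2 windows of Hsph1, Hspa1a with Hspa1b, Hspd1 with Hspe1), so they are not independent. Runs of 3 units were in 2 of the 10 windows, against 0.466% of all windows. Both of the latter are a single place, chr1:55088059-55088076, read from its opposite strands, where 2 overlapping runs of 3 units make up the marked stretch. It lies at -89 to -72 from the Hspe1 start and at -144 to -127 from 1 of the Hspd1 starts (the window of its other start holds no match), since these genes sit head to head and overlap by 112 bases. The printed stretch lies within the Hspd1 gene and overlaps an annotated Hspd1 exon, and the printed Hsph1 stretch overlaps an exon of Hsph1. The Hspa1b stretch is identical to that of Hspa1a, and 247 of the 250 bases before their starts are the same. The 2 windows of Dnajb1 held no match to these letters. A match is a description of the sequence, not of binding.

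Total counts ran from 25484294 to 32658148 per library, with 17586 to 18935 genes detected. Of the genes between Sod1 and Zbtb21, the segment in extra copy, 56 were tested and 47 were positive in Ts1Cje, with a median log2 fold change of 0.62, which checks the genotype labels; 0 of the 10 heat shock genes lie on chromosome 16. All 17 macrophage markers listed were expressed, with summed levels of 14063 to 28205 CPM (counts scaled by library total and TMM factor) in wild-type and 15462 to 26243 CPM in Ts1Cje libraries. Summed pluripotency markers were 0.849 to 11.1 and 5.35 to 7.18 CPM, with Sox2 and Esrrb at 0, and endothelial markers 17.6 to 70.7 and 38.2 to 71.9 CPM, with Cldn5 and Emcn at 0. Csf1r, the M-CSF receptor, averaged 1675 ± 696 and 1113 ± 24.6 CPM, and Spi1, the macrophage factor PU.1, 204 ± 37.6 and 229 ± 1.54 CPM (SD, n = 3). The macrophage markers with the smallest p were C1qa, a complement subunit, at 237, 416 and 73.8 against 84.0, 100.2 and 56.4 CPM (log2 fold change -1.60 ± 0.55) and Mpeg1, a pore-forming protein, at -0.83 ± 0.32 (SE; adjusted p = 0.792 for both, edgeR). Of the 17 macrophage markers, 11 were lower in Ts1Cje and 6 were higher, and the groups overlapped for each. The median log2 fold change over these markers was -0.07. Erythroid and megakaryocyte markers summed to 112 to 228 and 85.5 to 183 CPM. Mesenchymal markers summed to 19.4 to 47.0 and 13.2 to 81.0 CPM, with Thy1 at 0. Mast cell and neutrophil markers reached at most 10.2 and 2.25 CPM. Wild-type replicate 1 stood apart, at -88.2 on the first principal component against -18.7 to 38.7 for the other libraries. Its 20 genes of the G2/M phase of the cell cycle summed to 190 CPM, against 797 to 1495 CPM in the others, and Mki67, a marker of dividing cells, was at 16.5 CPM there against 54.5 to 115 CPM elsewhere. Cdk1, the kinase that starts mitosis, was at 37.6 CPM there against 75.7 to 108 CPM. In bulk RNA, fewer cells of a type and less RNA per cell cannot be told apart.

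Hspa8, Hspd1, Hsp90aa1 and Hspe1 were abundant in both genotypes, Dnajb1, Hsph1 and Hsf1 were at middle levels, and Hspa1a, Hspa1b and Hspb1 were close to absent. On the scale of TPM (deposited transcript abundance per gene length), the means over 6 libraries ran from 1186 ± 138 (SD) for Hspa8, the constitutive HSP70, through 331 ± 59.9 for Hspd1, 186 ± 59.5 for Hsp90aa1 and 152 ± 18.6 for Hspe1. Dnajb1 followed at 40.8 ± 7.68, Hsph1 at 22.1 ± 4.73 and Hsf1 at 14.99 ± 2.70. Hspa1a had 1.79 ± 1.01 and Hspa1b 0.825 ± 0.675 TPM, while Hspb1 averaged 1.45 TPM and ran from 0 to 4.13. Hspa8 therefore lay 282 to 1543 times above Hspa1a, depending on the library. Large parts of the Hspa1a, Hspa1b, Hspa8, Hsp90aa1, Hspb1 and Hspd1 transcripts also occur in other annotated genes. How shared reads were counted is not stated, so these levels and their order may depend on it. Ranges over the 6 libraries did not overlap between Hspa8 and Hspd1, Hspe1 and Dnajb1, Dnajb1 and Hsph1, or Hsf1 and Hspa1a. They did overlap between Hspd1 and Hsp90aa1, although Hspd1 was above it in 6 of 6 libraries, between Hsp90aa1 and Hspe1, between Hsph1 and Hsf1, and among the last 3.

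Between the genotypes, 0 of the 10 genes passed edgeR's quasi-likelihood test over all 13821 genes tested (Benjamini-Hochberg adjusted p under 0.05), a threshold that 0.00724% of tested genes passed (1 gene, Dnah11, an axonemal dynein at 0 to 0.162 CPM in wild-type and 419 to 541 CPM in Ts1Cje libraries, given here because it is the only call). All 10 were expressed enough to be tested. At an unadjusted p under 0.05 there were also 0 of 10, against 5.79% of tested genes. DESeq2 called 0 of the 10, against 56 of all 13821 genes, and limma-voom 0, against 1 of all 13821. With 3 libraries a group, the absence of calls does not show that the genes did not differ. The log2 fold change was positive, meaning higher in Ts1Cje, for 7 of the 10, against 49.2% of tested genes, with a median of 0.16 beside -0.01 over all genes tested. The groups were separated, with the lowest Ts1Cje library above the highest wild-type library, for Hspd1, Hspe1 and Hspa8, and 0 members were separated in the opposite direction. Over all genes tested, 6.38% were separated upward and 5.72% downward. The 3 separations rest in part on the scaling: in the deposited TPM Hspe1 alone was separated, and with RLE size factors Hspd1 and Hspe1. Hspa8 was also not separated with the stricter filter, nor without wild-type replicate 2 or Ts1Cje replicate 3. The shares over all genes were computed for the main fit only, so these other counts have no background beside them.

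**Figure D1:**
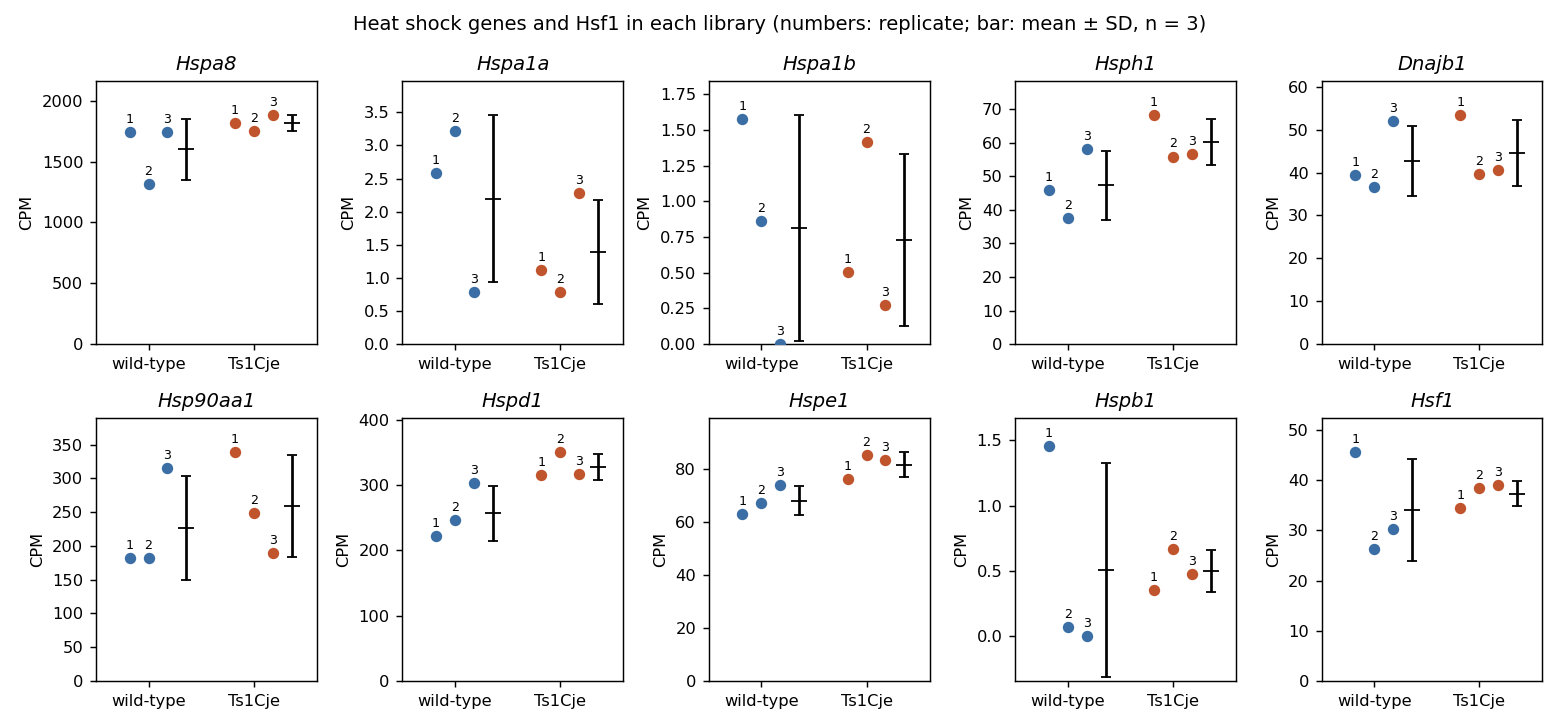
CPM of each heat shock gene and Hsf1 in the 3 wild-type (blue) and 3 Ts1Cje (orange) libraries, with replicate numbers and, in black, the mean ± SD (n = 3). Only Hspa8, Hspd1 and Hspe1 have all Ts1Cje points above all wild-type points, and for Hspa8 the gap is 1744 to 1748 CPM.

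**Figure D2:**
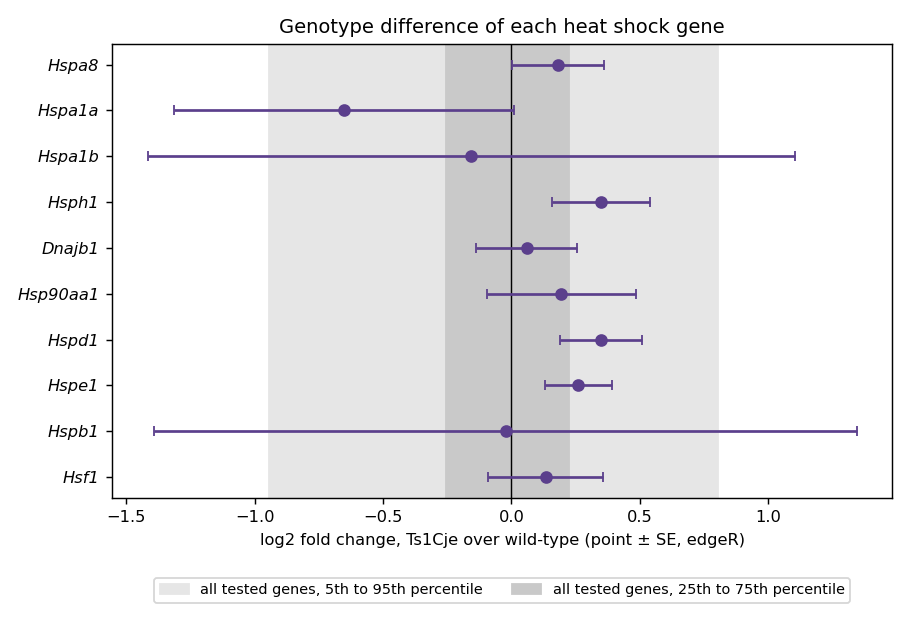
Log2 fold change of each gene (point) with its standard error (bar) from the edgeR fit, over grey bands for the middle of all 13821 tested genes. Hspd1, Hsph1 and Hspe1 lie just above the band that runs from the 25th to the 75th percentile, Hspa1a lies below it, and Hspa1a, Hspa1b and Hspb1 have the widest errors.

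The mitochondrial chaperonin genes were the members with the smallest p. Hspd1 encodes HSP60, the chamber itself, and Hspe1 encodes HSP10, its lid. Hspd1 was at 221, 246 and 303 CPM in wild-type replicates 1 to 3 and at 315, 350 and 317 CPM in Ts1Cje replicates 1 to 3. Hspe1 was at 63.0, 67.0 and 73.8 CPM in wild-type and 76.0, 85.1 and 83.2 CPM in Ts1Cje libraries. The groups did not overlap for either gene, with wild-type replicate 3 next to the Ts1Cje libraries and wild-type replicate 1 lowest. Means were 257 ± 42.1 and 327 ± 20.1 CPM for Hspd1, and 67.9 ± 5.45 and 81.4 ± 4.79 CPM for Hspe1 (SD, n = 3). The log2 fold changes were 0.35 ± 0.16 and 0.26 ± 0.13 (SE), neither past the threshold (adjusted p = 0.792 for each, edgeR; unadjusted 0.0619 and 0.0824). Without wild-type replicate 1, the library with low G2/M genes, they were 0.24 and 0.20, with both genes still separated. Leaving out a library can undo a separation only through the scaling. The part of the G2/M difference in the result was not tested. Ts1Cje replicate 2, the highest for both genes, also had the highest mesenchymal marker sum, 81.0 CPM, and without it they were 0.30 and 0.23, again separated.

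Hspd1 and Hspe1 ranked the 6 libraries in the same order, Ts1Cje replicates 2, 3 and 1 followed by wild-type replicates 3, 2 and 1. After subtraction of each gene's mean log2 CPM, their root mean square difference over the 6 libraries was 0.092, the smallest of all pairs among the 10 genes, where the next, Hspa8 with Hsph1, was 0.16. The stretch with the runs of 3 units lies before the Hspe1 start and within the annotated Hspd1 gene. Hspa1a and Hspa1b, with nearly identical promoters and few counts, differed by 1.43. A part of shared sequence in likeness was not tested. The 5 nearest genes outside the members were closer to Hspd1, at 0.034 to 0.045, than Hspe1 was. The ratio of Hspd1 to Hspe1 counts was 3.52, 3.67 and 4.12 for wild-type replicates 1 to 3, against 4.14, 4.12 and 3.81 for Ts1Cje replicates 1 to 3. The ratios overlapped, with means of 3.77 ± 0.311 and 4.02 ± 0.185 (SD, n = 3), a log2 difference of 0.10 and an exact two-sided permutation p of 0.2, where 3 against 3 cannot go below 0.1. Per length the ratio was 1.96 to 2.31 TPM of Hspd1 for each TPM of Hspe1. The genes overlap on opposite strands, and the sources used here do not say whether counting took strand into account. Of transcript windows, 33.7% for Hspd1 and 3.15% for Hspe1 also occur in other annotated genes. How reads shared with those genes were counted is not stated either, so the ratio may depend on it.

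**Figure D3:**
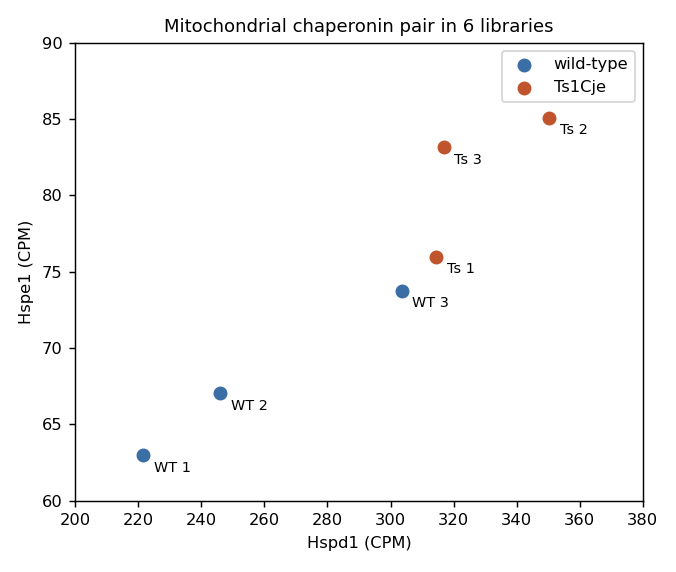
Hspe1 against Hspd1 in CPM for each of the 6 libraries; both axes start above 0. The libraries run from wild-type replicate 1 at 221 and 63.0 CPM to Ts1Cje replicate 2 at 350 and 85.1 CPM, with both genes giving the libraries the same order.

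Other mitochondrial chaperones and proteases went both ways. Of 14 listed and tested, 10 were positive and 4 negative, 0 were called, and the median was 0.06. Spg7, a subunit of an inner membrane protease, had 0.61 ± 0.20 (SE; unadjusted p = 0.0157 by edgeR, adjusted p = 0.792), at 42.5, 44.3 and 59.0 CPM in wild-type and 59.1, 82.2 and 82.2 CPM in Ts1Cje. Clpx, the unfoldase of the matrix protease ClpXP, had -0.42 ± 0.19 and Clpb -0.28 ± 0.18. Hspa9, the HSP70 of mitochondria, was at 173, 290 and 209.5 TPM in wild-type and 207, 265 and 215 TPM in Ts1Cje libraries, with groups that overlapped.

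For Hsp90aa1, Hsph1 and Dnajb1 the highest 2 libraries came from different genotypes. Hsp90aa1, the stress-responsive HSP90 gene, lies on chromosome 12, the chromosome that bears the extra segment. It was at 181, 182 and 315 CPM in wild-type and at 339, 249 and 189 CPM in Ts1Cje libraries. Wild-type replicate 3 and Ts1Cje replicate 1 were thus the highest, and the groups overlapped over nearly the whole range. Hsph1, which encodes HSP110, an exchange factor that resets HSP70, was at 46.0, 37.7 and 58.1 CPM in wild-type and 68.1, 55.9 and 56.5 CPM in Ts1Cje. Dnajb1, the HSP40 that starts the ATPase of HSP70, was at 39.4, 36.7 and 52.0 CPM in wild-type and 53.3, 39.7 and 40.5 CPM in Ts1Cje. In each of the 3 genes Ts1Cje replicate 1 ranked first and wild-type replicate 3 second. Over all 6 libraries Hsph1 was about as close to Dnajb1 (root mean square difference 0.17) as to Hspa8 (0.16). It was closer to these, to Hspd1 (0.18) and to Hspe1 (0.21) than to Hsp90aa1 (0.23). Log2 fold changes were 0.19 ± 0.29, 0.35 ± 0.19 and 0.06 ± 0.20 (SE), with adjusted p of 0.905, 0.792 and 0.962 by edgeR. The size of these differences rested on wild-type replicate 3: without it they were 0.51, 0.53 and 0.23, and all 3 genes were separated upward. Smaller groups separate more easily, and the share over all genes was not computed there. Without Ts1Cje replicate 1 Hsp90aa1 and Dnajb1 turned to -0.05 and -0.09, and Dnajb1 was also at -0.05 without wild-type replicate 2.

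The constitutive partner of Hsp90aa1 was steadier. Hsp90ab1, the housekeeping HSP90, was at 763 ± 98.2 TPM in wild-type and 814 ± 69.9 TPM in Ts1Cje (SD, n = 3), and exceeded Hsp90aa1 by 3.08 to 5.82 times. That ratio was lowest in Ts1Cje replicate 1, at 3.08, and wild-type replicate 3, at 3.37, and highest in wild-type replicate 2, at 5.82. Within genotypes, the SD of log2 CPM was 0.44 for Hsp90aa1, above that of 75.3% of the 10795 genes with a mean log2 CPM over 1, while Hspe1, at 0.10, was above 5.53% of them.

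Hspa8, the constitutive HSP70, was the member with the highest RNA level. It was at 1742, 1312 and 1744 CPM in wild-type and 1816, 1748 and 1878 CPM in Ts1Cje libraries. The groups did not overlap, but wild-type replicates 1 and 3 lay next to the lowest Ts1Cje library, and wild-type replicate 2 alone stood low. Its log2 fold change was 0.18 ± 0.18 (SE; adjusted p = 0.854, edgeR), and 0.05 without wild-type replicate 2. Of its transcript's 75-base windows, 41.3% also occur in other annotated genes. Gm26825, which shares 36.0% of the windows, had no row in the count table. The rows of the other 12 genes held counts equal to 1.87% to 2.17% of the Hspa8 count.

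The inducible HSP70 genes Hspa1a and Hspa1b are single-exon copies on chromosome 17, at 34969190 to 34972156 and 34956436 to 34959238 on the minus strand. Hspa1a had 64, 86 and 21 counts in wild-type and 38, 21 and 67 in Ts1Cje libraries. Hspa1b had 39, 23 and 0 counts in wild-type and 17, 38 and 8 in Ts1Cje. Neither gene separated the genotypes, and the 0 in wild-type replicate 3 allows up to 0.113 CPM (3 counts; counting error only). Log2 fold changes were -0.65 ± 0.66 and -0.16 ± 1.26 (SE), with adjusted p of 0.857 and 0.983 by edgeR. Of the Hspa1a transcript's 75-base windows 52.7% occur unchanged in Hspa1b, so reads could be split between the copies or set aside, and Gm20481, which has 0 counts, overlaps Hspa1a by 2225 bases on the opposite strand. Summed, the copies had 103, 109 and 21 counts in wild-type and 55, 59 and 75 in Ts1Cje, or 3.01 ± 1.92 and 2.13 ± 0.469 CPM (SD, n = 3). Their log2 fold change was -0.50 (adjusted p = 0.887, edgeR). Wild-type replicate 3, among the highest libraries for Hsp90aa1, Hsph1 and Dnajb1, was the lowest for the summed pair.

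Hspb1, the small heat shock protein HSP27 (HSP25 in mice), which holds unfolded chains without ATP, was close to the floor. Wild-type replicates 1 to 3 held 36, 2 and 0 counts, and Ts1Cje replicates 1 to 3 held 12, 18 and 14. Of the Hspb1 transcript's windows, 47.3% also occur in 2 other annotated genes, whose rows held 0 counts. Reads from these windows could have been set aside, which was not tested. Wild-type replicate 1 held nearly all wild-type counts, so the fold change of -0.02 ± 1.37 (SE; adjusted p = 0.996, edgeR) became 3.58 without that library, with an adjusted p of 0.989. Of 9 other small heat shock proteins 4 were tested and 0 called, and their median of -0.74 became 0.08 with no filter on low counts and 0.45 without wild-type replicate 1. Hspb7 was the member of that list with the smallest p, at 12.3, 8.40 and 4.84 CPM in wild-type and 3.87, 2.98 and 2.04 CPM in Ts1Cje. The groups did not overlap, with a log2 fold change of -1.52 ± 0.42 (SE; unadjusted p = 0.00763, adjusted p = 0.792, edgeR). Cryab, the alpha B crystallin, had -1.59 ± 1.29 and was highest in wild-type replicate 1, at 3.80 CPM against 0.0751 to 0.670 CPM in the others. Hspb6 had 0.10 ± 0.56.

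Hsf1 itself lies on chromosome 15, at 76477422 to 76501913 on the plus strand. It was at 45.6, 26.2 and 30.3 CPM in wild-type and 34.5, 38.5 and 39.0 CPM in Ts1Cje libraries, with wild-type replicates on both sides of the Ts1Cje range. The log2 fold change was 0.13 ± 0.22 (SE; adjusted p = 0.917, edgeR), 0.39 without wild-type replicate 1 and -0.03 without wild-type replicate 2. Hsf1 was highest in wild-type replicate 1, where Hspd1, Hspe1 and Hsp90aa1 were lowest. RNA levels of Hsf1 do not show its activity, which is set by trimer formation and phosphorylation of the protein. Among its relatives, Hsf2 had -0.37 ± 0.27, Hsf4 0.16 ± 0.89 and Hsbp1, an inhibitor of Hsf1 trimers, 0.11 ± 0.20 (SE). Hsf3 had 0 counts in every library, and 3 of the 7 genes of this list were tested with 0 called.

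**Figure D4:**
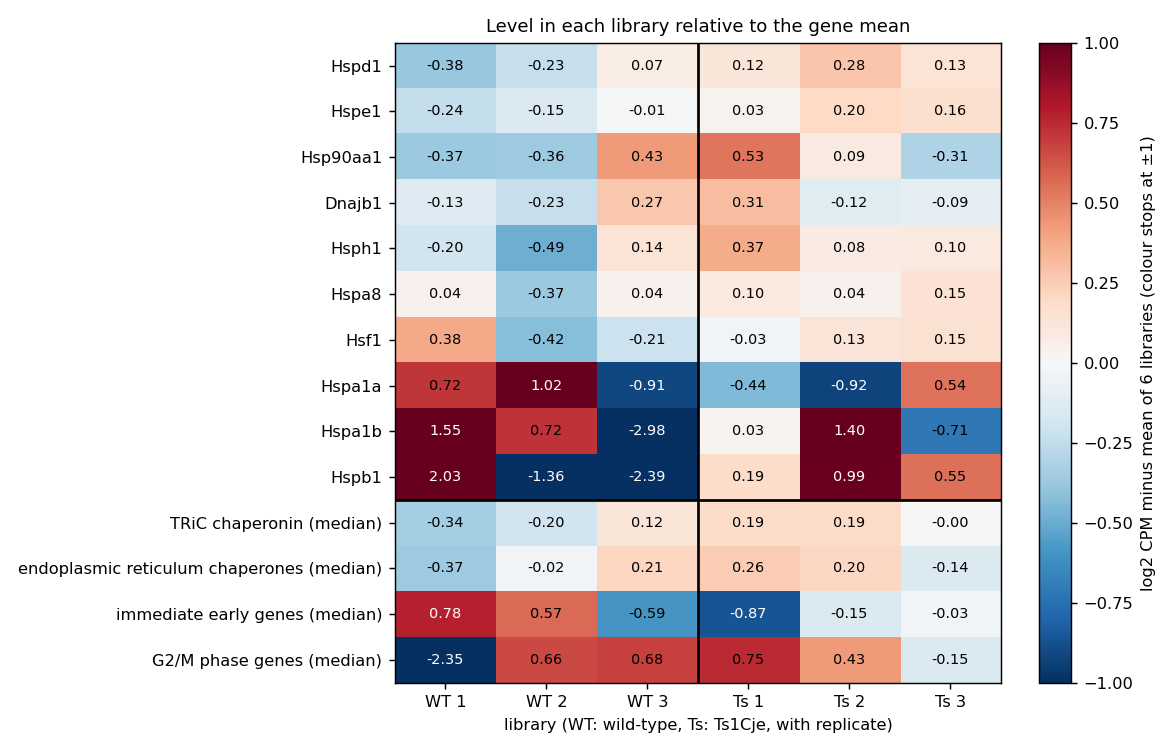
Log2 CPM of each gene minus its mean over the 6 libraries, with list medians below the line; colours stop at 1 in either direction and the printed values do not. Hspd1 and Hspe1 follow each other, Hsp90aa1, Dnajb1 and Hsph1 are highest in wild-type replicate 3 and Ts1Cje replicate 1, and wild-type replicate 1 has a G2/M median of -2.35.

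Over the lists of other chaperones, their partners and heat shock factors, edgeR and DESeq2 each called 0 genes; at an unadjusted p under 0.05 edgeR had 6 of 118 tested genes, or 5.08%, near the 5.79% over all genes tested. They were 2 higher (Ahsa1 and Spg7) and 4 lower (Hspb7 and 3 J-domain genes). The TRiC chaperonin, which folds actin and tubulin, had 7 of 8 subunits positive and a median of 0.27, and its medians by library (-0.34, -0.20 and 0.12 for wild-type, 0.19, 0.19 and -0.001 for Ts1Cje) had the same lowest libraries as Hspd1. Its subunits with the smallest p were Tcp1 at 0.35 ± 0.15, Cct8 at 0.33 ± 0.16 and Cct3 at 0.35 ± 0.18 (SE). Of 24 cytosolic co-chaperones 14 were positive (median 0.09). Ahsa1, which speeds the ATPase of HSP90, was at 58.6, 59.7 and 76.0 CPM in wild-type and 91.2, 81.7 and 95.9 CPM in Ts1Cje, a log2 fold change of 0.47 ± 0.15 (SE; unadjusted p = 0.0171, adjusted p = 0.792, edgeR) with groups that did not overlap. Ptges3, the HSP90 co-chaperone p23, had 0.28 ± 0.13 and was also separated, and Sgta had 0.35 ± 0.16. The other HSP90 genes gave 3 of 3 positive (median 0.08), with Hsp90ab1 at 0.10 ± 0.15, Trap1 at 0.08 ± 0.13 and Hsp90b1 at 0.08 ± 0.23.

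The remaining HSP70 genes had 7 of 10 tested positive (median 0.09), with Hspa2 at -0.51 ± 0.26, Hspa4, another exchange factor of the HSP110 kind, at 0.29 ± 0.17 and Hyou1 at 0.25 ± 0.21 (SE). J-domain genes had 18 positive and 20 negative of 38 tested (median -0.01). Those with the smallest p were negative: Dnajc4 at -0.57 ± 0.17, Dnajc8 at -0.46 ± 0.17 and Dnajc12 at -0.45 ± 0.18, each below wild-type in 3 of 3 libraries and with unadjusted p of 0.0113, 0.0272 and 0.0399 (edgeR; adjusted p = 0.792 for each). Dnajc28 lies in the segment present in extra copy but had -0.50 ± 0.52 (adjusted p = 0.860, edgeR), with 213, 76 and 71 counts in wild-type and 81, 95 and 118 in Ts1Cje libraries, so that wild-type replicate 1 sets its direction. Prefoldin, which hands chains to TRiC, had 3 of 6 positive (median 0.06), with Vbp1 at -0.22 ± 0.14, Pfdn5 at -0.30 ± 0.20 and Pfdn6 at 0.28 ± 0.19.

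Chaperones of the endoplasmic reticulum, most of which are known targets of the unfolded protein response, had 13 of 17 positive, with a median of 0.16 that turned to -0.015 when wild-type replicate 1 was left out. It was 0.086 when Ts1Cje replicate 1 was left out, and 0.31 and 0.27 when replicate 3 of wild-type or of Ts1Cje was. The smallest p were those of Calr at 0.57 ± 0.28, Dnajc3 at 0.35 ± 0.18 and Sdf2l1 at 0.41 ± 0.27 (SE). Their library medians were lowest in wild-type replicate 1, at -0.37, and highest in Ts1Cje replicate 1, at 0.26. Hspa5, the HSP70 of this compartment, was at 1462 ± 361 TPM in wild-type and 1641 ± 324 TPM in Ts1Cje (SD, n = 3). Hspa8 was at 1114 ± 172 and 1258 ± 47.9 TPM. It exceeded Hspa5 only in wild-type replicate 1, at 1184 against 1059 TPM.

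**Figure D5:**
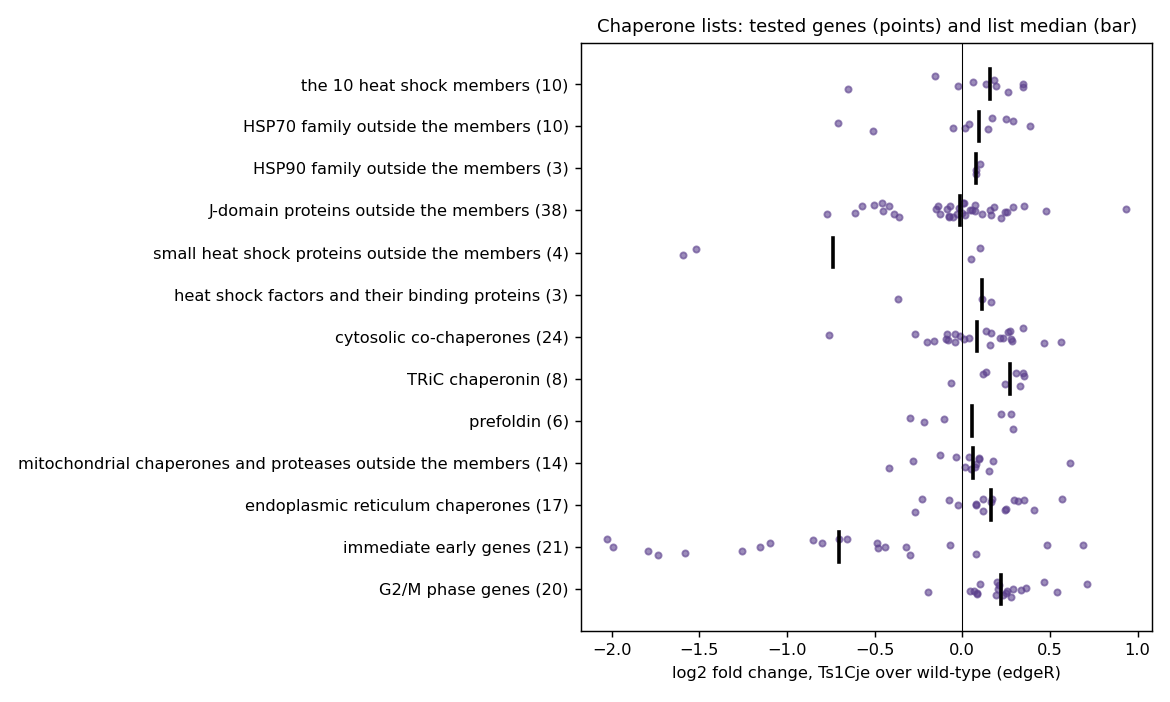
EdgeR log2 fold change of every tested gene (points) in each chaperone list, with immediate early and G2/M genes for comparison, and the list median (bar); tested genes per list stand in brackets. Medians of the chaperone lists lie between -0.01 and 0.27 apart from small heat shock proteins, with 4 tested genes, at -0.74 (0.08 with no filter).

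Immediate early genes are switched on within minutes of handling or growth factor signals. Of 21 tested, 18 were negative in Ts1Cje, with a median of -0.70. EdgeR called 0 (4 negative genes had an unadjusted p under 0.05), while DESeq2 called Ier2 and Egr1. Medians by library ran 0.78, 0.57 and -0.59 for wild-type replicates 1 to 3, then -0.87, -0.15 and -0.03 for Ts1Cje. Wild-type replicate 3 and Ts1Cje replicate 1, the highest for Hsp90aa1, Hsph1 and Dnajb1, were therefore the lowest for immediate early genes. Fos was at 1210, 982 and 346 CPM in wild-type and 281, 520 and 386 CPM in Ts1Cje libraries, a log2 fold change of -1.10 ± 0.45 (SE; adjusted p = 0.792, edgeR). Ier2 had -2.03 ± 0.52, Egr1 -1.99 ± 0.61 and Dusp1 -0.80 ± 0.30.

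Genes with patterns most like those of 3 members were sought among 10788 expressed genes by the root mean square difference of centred log2 CPM over the 6 libraries. For Hspd1 they were Atad3a, an ATPase of the inner mitochondrial membrane, at 0.034, Btd, biotinidase, at 0.037, Ap3m1, an adaptor subunit, at 0.044, Ppat, the enzyme that commits to purine synthesis, at 0.044, and Ampd2, an AMP deaminase, at 0.045. For Hsp90aa1 they were Rgl1 at 0.076, Pex26 at 0.087, Haus6 at 0.090, Eya3 at 0.093 and Maged2 at 0.095. For Hspa1b, with few counts, no gene came as close, and the nearest were Btbd8 at 0.50, Cybb, the catalytic subunit of the phagocyte oxidase, at 0.63, Rccd1 at 0.63, Lncpint at 0.72 and Ifi206 at 0.72. All points share the same 6 libraries and depths, so these are descriptions only.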

How the data were processed

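RNA from 6 cultures (3 wild-type, 3 Ts1Cje) was sequenced after SMART-seq HT Plus library preparation, per the labels' protocols. FastQC 0.11.7, Trimmomatic 0.38, HISAT2 2.1.0, featureCounts 1.6.3 and mm10 are named in the submitters' processing notes; strand and multi-mapping settings are not stated there. Raw counts per gene and TPM were deposited by the authors. In all 11102 genes checked, TPM equalled counts divided by 1 length per gene and a library factor, within 1%. Member coordinates were those of GENCODE M21.

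Counts were tested with edgeR 4.0.16 in R 4.3.3 (quasi-likelihood, TMM, genotype as the only term), after filterByExpr (at least 10 counts, 15 in total), with Benjamini-Hochberg adjustment over 13821 genes. SE is the log2 fold change divided by the root of F, and log2 CPM used a prior count of 2. Alternatives were DESeq2 1.42.0, limma 3.58.1 (voom, and log2 TPM with pseudocounts of 1 and 0.1 for a mean TPM of at least 1), RLE factors, other filters, Hspa1a and Hspa1b summed, lot number as a block, and leaving out single libraries. The fit was tested on simulated data. Transcript windows of 75 bases were compared with all GENCODE M21 transcripts. The share also found in other genes was 53.1% for Hsp90aa1, 47.3% for Hspb1, 33.7% for Hspd1 and 3.15% for Hspe1. Totals of 25484294 to 32658148 counts set the precision, and limits for 0 counts cover counting error only.

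The text names all members, up to 3 tested genes with the smallest p in each list, the 5 genes most like Hspa1b, Hsp90aa1 and Hspd1, and Csf1r, Spi1, Mki67, Cdk1, Fos and Dnajc28; Hspa5, Hspa9 and Dnah11 were added after their values were seen. The members and lists were chosen with earlier results of these data known.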

Additional observations from a re-analysis of the deposited data

How the results depend on the processing

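The count of heat shock genes called was 0 under every alternative run, with adjusted p of 0.203 or more for Hspd1 and 0.305 or more for Hspe1. Their log2 fold changes stayed positive, at 0.24 to 0.49 and 0.20 to 0.33, as did those of Hsph1 (0.20 to 0.53) and Hspa8 (0.05 to 0.25), while Hspa1a stayed negative (-1.21 to -0.28). Leaving out each library in turn moved the median over the members from 0.0075 (without wild-type replicate 2) to 0.24 and the number of genes with separated groups from 2 to 7. The 7 were reached without wild-type replicate 3, with Hspa1a separated downward and 3 members at an unadjusted p under 0.05 (edgeR). Smaller groups separate more easily, and the shares over all genes tested were not computed with a library left out, so these counts have no background beside them. In the deposited TPM, an alternative chosen after seeing the data, 1 gene was separated, and the share over all genes was not computed there either.

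Values that changed direction belonged to genes with small differences or few counts. Leaving out a library gave ranges of -0.089 to 0.23 for Dnajb1 (-0.004 without wild-type replicate 1), -0.033 to 0.39 for Hsf1, -0.045 to 0.51 for Hsp90aa1, -1.05 to 0.75 for Hspa1b and -0.60 to 3.58 for Hspb1. Hspa1b was at 1.01 with limma-voom, and Hspb1 at 1.90 with limma-voom, 0.39 on log2(TPM + 1) and 1.55 on log2(TPM + 0.1); the cause was not tested. Among genes of the pathway lists, DESeq2 called 2, Ier2 and Egr1, and leaving out a library gave 0 to 1, with Ier2 called without wild-type replicate 3. The stricter filter left 7 members to test. Of the list medians under alternatives, 158 moved by less than the spread between replicates and 10 by more, mostly those of the small heat shock proteins (-0.86 to 0.45); the medians of TRiC (0.17 to 0.44) and of the immediate early genes (-1.04 to -0.36) kept their signs. Leaving out a library turned the signs of the medians of the endoplasmic reticulum chaperones (-0.015 to 0.31), heat shock factors (-0.56 to 0.26), HSP70 (-0.0095 to 0.11), mitochondrial (-0.0047 to 0.11), prefoldin (-0.045 to 0.065), J-domain (-0.061 to 0.013) and G2/M lists (-0.27 to 0.58). Over all genes edgeR called 1, 3 with no filter and 6 without wild-type replicate 3, and DESeq2 called 56.

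Deviations from group means of same-numbered libraries correlated at -0.29, -0.04 and -0.17 over 10795 genes, and those of differently numbered libraries at -0.12 to 0.29. Deviations within a group of 3 are not independent, so these values cannot tell whether lots with the same number were shared. With the number as a replicate block edgeR called 0 genes in all, 0 of them heat shock genes or pathway genes; the median over the members was 0.24, and Hspa1b turned to 0.56 and Hspb1 to 1.77. The difference in the Hspd1 to Hspe1 ratio was 0.10 with the block, with an exact sign permutation p of 0.5, where 3 pairs cannot go below 0.25, and 0.05 to 0.16 without single libraries.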
